A study of Homo sapiens with 8 samples.

Results

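Among the transcript models built from direct RNA reads of 3 human cell lines, 61934 of 506946 models (12.2%) had a single exon and were classed as Genomic, and these one-exon Genomic models are described here. They were chosen by class and exon number alone, with no use of their read counts. Of the 61934, 35721 had at least 1 read in the 8 libraries, and together they held 209835 of 1910686 reads (11.0%). They were assigned to 18794 gene identifiers.

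TALON, the annotation tool that built the models, matches each long read to annotated transcripts by its splice junctions. A read that overlaps a gene but carries no junction chain matching or extending an annotated transcript is classed as Genomic. In general such a read can come from unspliced RNA or genomic DNA, and also from the 3′ part of a spliced transcript whose last exon is longer than the read, since direct RNA sequencing reads a molecule from its poly(A) tail towards its 5′ end. The tables used here give a model's length and gene but no coordinates, and the part of each source in these reads was not tested.

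The libraries were made from total RNA extracted with a QIAGEN kit and sequenced directly on Oxford Nanopore instruments, as part of a comparison of long-read platforms. K562 is a chronic myelogenous leukaemia line with erythroid features (2 libraries), HepG2 is a hepatocellular carcinoma line (3 libraries) and GM12878 is a B-lymphoblastoid line (3 libraries). None was treated. Whether the libraries of a line came from separate cultures is not stated. The p-values therefore cover the spread of these libraries, which may be only technical.

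Libraries held between 70374 reads (GM12878 replicate 3) and 461497 reads (HepG2 replicate 1). Lineage markers separated the lines over all read classes. The B cell genes CD79A, CD79B and MS4A1 had no reads in K562, against 159, 52 and 148 reads in GM12878, although the labels give K562 the cell type of a lymphoblastoid line. K562 had 6137 reads of the globin gene HBG2, and HepG2 had 28446 reads of ALB. HepG2 also had 1450 reads of LYZ, a lysozyme gene listed as a marker of other cell types, while CD3E had none in any line. In RNA from a whole culture, fewer cells of a type and less RNA per cell cannot be told apart.

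Several of the most abundant members lay at processed pseudogenes, which are intronless copies of spliced mRNAs. Coding stretches of 60 bases are shown from 3 of these copies and the genes they are named after. Over such stretches a read has few differences by which to be placed. Bases that differ are in capitals, and sequences are GENCODE release 29 transcripts on hg38, read 5′ to 3′ along the transcript. The EEF1A1 stretch was at chr6:73519367-73519426 on the minus strand and that of EEF1A1P5 at chr9:133019720-133019779 on the plus strand. The RPL6 stretch was at chr12:112408279-112408338 on the minus strand and that of RPL6P27 at chr18:6462714-6462773 on the minus strand. The RPL13 stretch was at chr16:89561294-89561353 on the plus strand and that of RPL13P12 at chr17:17383782-17383841 on the minus strand.
EEF1A1P5: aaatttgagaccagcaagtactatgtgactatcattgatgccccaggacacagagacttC
EEF1A1: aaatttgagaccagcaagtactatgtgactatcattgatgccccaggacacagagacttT
RPL6P27: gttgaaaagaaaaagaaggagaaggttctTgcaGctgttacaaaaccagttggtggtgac
RPL6: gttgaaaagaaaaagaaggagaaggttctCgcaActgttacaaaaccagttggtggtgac
RPL13P12: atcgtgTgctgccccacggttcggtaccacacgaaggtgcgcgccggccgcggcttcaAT
RPL13: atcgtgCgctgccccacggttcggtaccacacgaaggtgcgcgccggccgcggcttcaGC
Over the whole annotated copy, EEF1A1P5 differed from EEF1A1 at 4 of 1389 aligned bases, RPL6P27 from RPL6 at 6 of 867 and RPL13P12 from RPL13 at 10 of 636. Reads of these pairs could be split between the copies by alignment, so the assignment to either copy is uncertain.

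One-exon Genomic reads were between 9.59 and 12.1% of all reads in each library. Their share was 9.81 and 9.72% in K562, 11.3, 11.7 and 12.1% in HepG2, and 12.0, 9.93 and 9.59% in GM12878. GM12878 replicate 1 was the only library outside HepG2 that reached the HepG2 range. The means were 9.76 ± 0.064% in K562 (SD, n = 2), 11.7 ± 0.403% in HepG2 (SD, n = 3) and 10.5 ± 1.29% in GM12878 (SD, n = 3). An exact permutation test over the 560 assignments of libraries to lines gave p = 0.189 for the 3 lines. K562 and HepG2 did not overlap (difference -1.93 points, exact permutation p = 0.1, the smallest that 2 against 3 libraries allow), and GM12878 overlapped both. Without GM12878 replicate 1 the largest difference between lines was 1.93 points and the exact permutation p was 0.0286. The exact 95% interval (Clopper-Pearson) was widest in GM12878 replicate 3, from 9.38 to 9.81%, and such intervals and the floors given below cover counting error only.

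Genomic models with several exons were far rarer, at 3288 models and 0.160% of reads. Known models of a single exon held 58130 reads (3.04%) and single-exon incomplete splice matches held 45024 (2.36%). Of the one-exon Genomic models, 19158 had reads in 1 library only, and 763 had reads in all 8 libraries and carried 25.4% of the reads of the class. There were 17468 models with a single read, and 176 with 100 reads or more held 19.7% of the reads. The reads were therefore spread over many models: the 10 genes with the most one-exon reads held 8.25% and the first 1000 held 53.2%.

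Model length, taken here as a stand-in for read length since the tables hold no read lengths, had a read-weighted median of 934 and 945 bases in K562, 951, 935 and 867 bases in HepG2, and 967, 955 and 965 bases in GM12878. Every GM12878 library lay above every K562 and HepG2 library. The exact permutation p over the 3 lines was 0.186. Without HepG2 replicate 1 the largest difference was 61.3 bases and the exact p was 0.0286. In the same libraries, known spliced models had read-weighted median lengths between 1071 and 1244 bases. A read need not span the whole of its model, so the differences that follow are between model lengths. Whether the reads differed in length was not tested. One-exon Genomic medians were lower than these in 8 of 8 libraries, with a mean difference of -239.9 ± 61.1 bases (SD, n = 8; exact sign-flip permutation p = 0.00781, the smallest 8 libraries allow). They were higher than those of Genomic models with several exons in 8 of 8 libraries, by 348 ± 164 bases (SD, n = 8; exact sign-flip permutation p = 0.00781). Against single-exon incomplete splice matches they differed by 18.2 ± 27.4 bases (SD, n = 8; exact sign-flip permutation p = 0.125), lower in 3 libraries. The class spanned 1 to 7753 bases. It included 852 models listed at 1 base, which held 880 reads and whose length cannot be that of a read; no source used here says what this value means. Further, models under 300 bases held 1.37% of the reads.

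**Figure D1:**
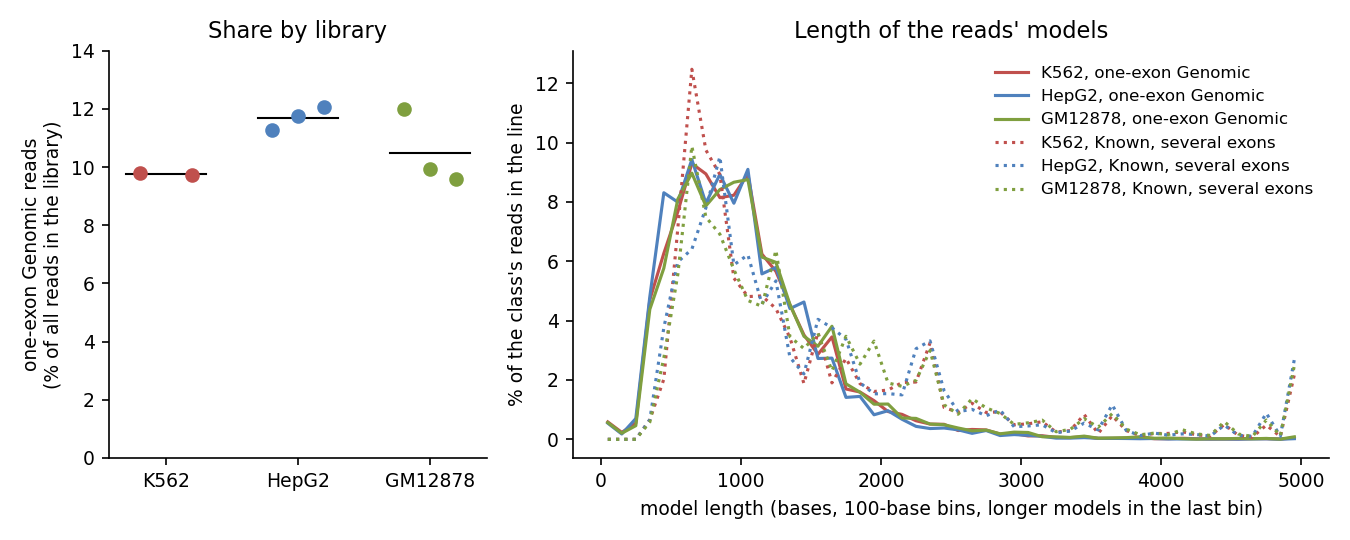
Left, one-exon Genomic reads as a percentage of all reads in each library (points), with the line's mean (bar), for K562, HepG2 and GM12878. Right, the percentage of reads in 100-base bins of model length for one-exon Genomic models (solid) and known spliced models (dotted). One-exon models thin out above a model length of about 2000 bases, where known spliced models keep a tail.

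Spliced protein-coding genes held 85.4% of the one-exon Genomic reads, at 10079 genes. Of those reads, 95.9% belonged to models no longer than the longest annotated 3′ exon of the gene, and 3.26% to models longer than any merged exon, which cannot lie inside a single annotated exon. Spliced noncoding genes held 3.31%, single-exon protein-coding genes 2.77%, processed pseudogenes 2.74% and mitochondrial genes 1.97%. Genes that the annotation did not hold contributed 1.58% at intergenic and 1.21% at antisense loci. Models longer than any annotated exon held 46.4% of the one-exon reads at spliced noncoding genes and 48.8% at processed pseudogenes. Single genes weighed in both: the share was 28.6% at processed pseudogenes without EEF1A1P5, and 34.1% at spliced noncoding genes without FP671120.1 and FP236383.1.

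Over all annotated genes, models longer than every exon held 7.29 and 6.36% of the one-exon reads in K562, 6.15, 6.22 and 5.60% in HepG2, and 6.37, 6.98 and 8.07% in GM12878. HepG2 libraries were the lowest 3 and GM12878 replicate 3, the shallowest library, was the highest. The exact permutation p over lines was 0.157. Within spliced coding genes the means were 3.56 ± 0.480% in K562 (SD, n = 2), 3.15 ± 0.275% in HepG2 and 3.23 ± 0.200% in GM12878 (SD, n = 3 each), with an exact permutation p of 0.407.

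The pooled share rose with the length of the 3′ exon over most of its range, though not at either end. Where the longest annotated 3′ exon of a spliced coding gene was up to 250 bases, one-exon Genomic reads were 1.07% of the genes' reads over the 8 libraries, and for exons of 251 to 500 bases they were 0.766%. The share was 2.71% for exons of 501 to 1000 bases, 14.6% for 1001 to 2000, 19.9% for 2001 to 3000 and 26.7% for 3001 to 5000. For 3′ exons over 5000 bases it was 19.5%. These shares pool the reads of all genes in a bin. Over genes with at least 50 reads, the median gene share was 25.7% for exons of 2001 to 3000 bases, 28.4% for 3001 to 5000 and 26.8% over 5000. The step between genes under and over 1000 bases was present in every library: the bin of 501 to 1000 bases lay between 1.94 and 3.49%, and the bin of 1001 to 2000 between 12.4 and 16.6%. Across 4743 spliced coding genes with at least 50 reads, Spearman's rho between exon length and share was 0.584. These genes share libraries and depth and are not independent replicates, so the value is a description.

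**Figure D2:**
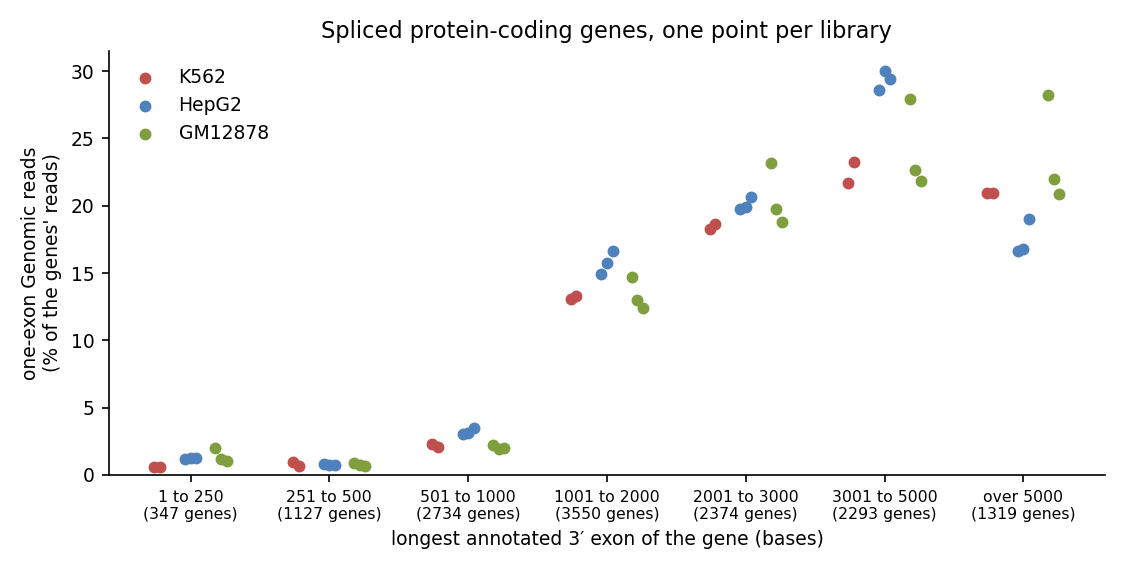
One-exon Genomic reads as a percentage of all reads of spliced protein-coding genes, by the length of the gene's longest annotated 3′ exon in bases, with 1 point per library and colours for K562, HepG2 and GM12878. All libraries lie under 4% up to 1000 bases and above 12% beyond it.

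In these pooled shares the order of the lines differed between the longest bins. For 3′ exons of 3001 to 5000 bases the share was 22.5 ± 1.06% in K562 (SD, n = 2), 29.4 ± 0.741% in HepG2 and 24.2 ± 3.30% in GM12878 (SD, n = 3 each), and HepG2 was the highest. For exons over 5000 bases it was 20.9 ± 0.00276% in K562 (SD, n = 2), 17.5 ± 1.32% in HepG2 and 23.7 ± 3.97% in GM12878 (SD, n = 3 each), and HepG2 was the lowest. Exact permutation p-values over lines were 0.0536 and 0.0464, both 0.105 after adjustment over the 7 bins.

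Gene groups showed the same spread. Over all annotated genes the pooled one-exon share was 10.8%, and the median over 4943 genes with at least 50 reads was 4.22%, with a median longest 3′ exon of 1274 bases. Globin mRNAs, whose median longest 3′ exon was 296 bases, had 0 one-exon Genomic reads among 15590, which allows a share of up to 0.0192%. Ribosomal protein genes, with short mRNAs of very high level, had 966 among 385290 reads (0.251%). Of the 966, 278 came from RPL15, whose annotated 3′ exon reaches 2777 bases. A further 127 came from RPL7L1, a ribosomal protein-like gene listed with them. Genes with no one-exon Genomic read among at least 200 included PSMB1 and PSMC4, proteasome subunits with 1482 and 402 reads, and the mitochondrial acyl carrier protein gene NDUFAB1 with 865 reads.

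Of the 13 genes listed as nuclear-retained long noncoding RNAs, 11 were in the tables, and 228 of their 307 reads were in the class (74.3%). The share was 75.7 ± 2.90% in K562 (SD, n = 2), 79.4 ± 5.88% in HepG2 and 46.5 ± 24.7% in GM12878 (SD, n = 3 each). These shares rest on few one-exon reads, 56 in K562, 153 in HepG2 and only 19 in GM12878. NORAD, a single-exon noncoding RNA that binds Pumilio proteins in the cytoplasm, supplied 140 of the 228 reads, and all its reads were one-exon Genomic. NEAT1, the scaffold RNA of paraspeckles, had 28 reads and all were in the class. SR protein, CLK kinase and related genes, several of which keep introns in nuclear RNA, had 938 among 4884 reads (19.2%). Their median longest 3′ exon was 2171 bases, and all spliced coding genes with 3′ exons of 2001 to 3000 bases stood at 19.9%. SRSF1, a splicing factor, had 196 of 241 reads in the class, and all 196 belonged to models within the length of its 2614-base 3′ exon. DDX17, an RNA helicase, had 157 of 161, likewise all within the length of its 3001-base 3′ exon. Small nucleolar RNA host genes had 9.26%, of which SNHG16 supplied 329 of 381 reads. Mitochondrially encoded genes had 28.6%, immediate early and single-exon genes 32.5%, immunoglobulin and MHC genes 1.35%, hepatocyte secreted proteins 2.30%, and high-level elongation and housekeeping mRNAs 2.78%. Over members with at least 50 reads, the median gene share was 6.92, 29.95, 0.0876, 0.0755 and 0.113% in the same order. Single genes weighed in the pooled values: MT-RNR2 supplied 2286 of 4124 mitochondrial one-exon reads, and APOA1 2332 of 3170 hepatocyte reads. CD74 supplied 86 of 158 immunoglobulin and MHC reads, and ACTG1 1146 of 3243 housekeeping reads.

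The member genes of highest level differed in how their models related to the annotation. EEF1A1P5 had 3468 one-exon reads, the most of any gene, in 7 models. They numbered 258 and 513 in K562, 651, 534 and 627 in HepG2, and 273, 434 and 178 in GM12878. As counts per 1000000 reads after scaling by trimmed means (CPM), this was 1542 ± 59.5 CPM in K562 (SD, n = 2), 2132 ± 415 CPM in HepG2 and 2038 ± 346 CPM in GM12878 (SD, n = 3 each), and no pair of lines passed the test below. Its main model, of 1690 bases and 2156 reads, was longer than the 1389-base annotated copy. The parent gene EEF1A1, which encodes a translation elongation factor, had 19321 reads, of which 179 were one-exon Genomic.

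RPL6P27 had 659 one-exon reads, nearly all (652) on a model of 864 bases, close to the 867 bases annotated, while RPL6 had 3576 reads with none in the class. The other processed pseudogenes with at least 50 one-exon reads and a gene of the same name stem were RPL13P12 (314 reads), HNRNPA1P10 (161), RPL4P4 (123) and MORF4L1P1 (55). Their aligned identity to RPL13, HNRNPA1, RPL4 and MORF4L1 was 98.4, 99.6, 98.4 and 99.3%. The parents held most of the reads of each pair: the pseudogene's part was 15.3% for EEF1A1P5, 15.6% for RPL6P27, 3.74% for RPL13P12, 6.15% for HNRNPA1P10, 3.04% for RPL4P4 and 28.6% for MORF4L1P1. AC010894.3, an antisense noncoding gene on chromosome 2 that overlaps the histone pseudogene H3F3AP4, had 663 reads, of which 652 sat on a model of 930 bases. H3F3AP4 itself had 3 reads and none in the class.

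A pair of long noncoding genes on chromosome 21, FP671120.1 and FP236383.1, had 1438 and 637 one-exon reads in 89 and 81 models. Both overlap ribosomal RNA genes: RefSeq places RNA45SN2, with its 18S, 5.8S and 28S parts, inside FP671120.1, and RNA45SN3 inside FP236383.1. Their 3′ exons are 467 bases long, and only 0.487 and 3.14% of their one-exon reads belonged to models that short. FP671120.1 had 86 and 150 reads in K562, 361, 283 and 289 in HepG2, and 85, 91 and 93 in GM12878. In edgeR's quasi-likelihood test it was lower in K562 than in HepG2 (log2 change -1.18 ± 0.29 SE, adjusted p = 0.00188). With library totals in place of the trimmed-mean scaling, the median log2 change of all features in this comparison moved by 0.38. A change of this size may then fall under the 2-fold threshold used below. The repeated ribosomal DNA copies share sequence, so the copy of origin is uncertain.

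Mitochondrial 16S ribosomal RNA, MT-RNR2, had 2286 one-exon reads, 1725 of them on a model of 1044 bases against an annotated 1559. The reads varied widely within lines: 19 and 112 in K562, 816, 419 and 309 in HepG2, and 313, 275 and 23 in GM12878. MT-CO1, a subunit of cytochrome c oxidase, had 17 and 65 reads in K562, 275, 156 and 178 in HepG2, and 64, 44 and 26 in GM12878. HepG2 had the most in every library. MT-ND5, a complex I subunit, had 97.4% of its reads in the class, and its main model of 2021 bases was longer than the 1812-base gene.

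**Figure D3:**
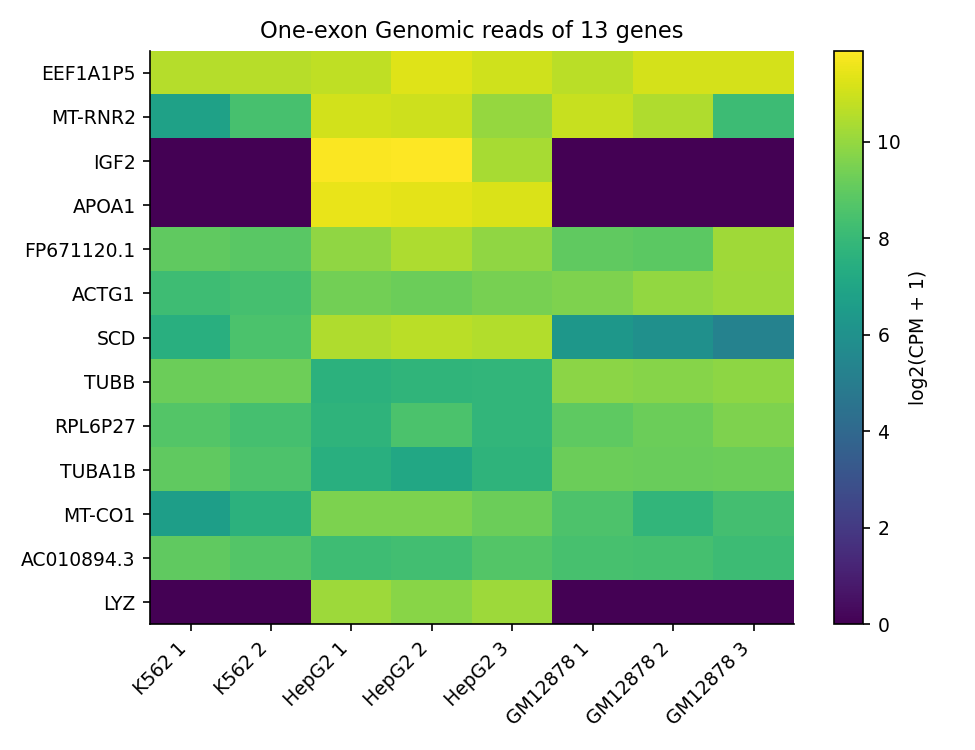
One-exon Genomic reads of the 13 genes with the highest mean over the lines, in each library of K562, HepG2 and GM12878, as log2(CPM + 1) by colour. IGF2, APOA1 and LYZ have no reads in K562 or GM12878.

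A pair of spliced genes with long 3′ exons had all their one-exon models shorter than the exon. SCD, the stearoyl-CoA desaturase of fatty acid synthesis (chr10:100347124-100364834), had 1489 one-exon reads among 1654 (90.0%) in 18 models, led by lengths of 1535 and 1221 bases against a 3′ exon of 4101 bases. IGF2, a foetal growth factor (chr11:2129112-2158658), had 2509 among 2522 reads (99.5%), led by models of 1493 and 853 bases against an exon of 4112 bases. GENCODE lists IGF2 under a second identifier at the same place, so reads could be split between them.

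Where the 3′ exon was short, a model could be close to its length or well under it. LYZ (chr12:69348341-69354234) had a single model of 1073 bases with all 940 of its one-exon reads, against a 3′ exon of 1082 bases. APOA1, the main apolipoprotein of HDL (chr11:116835751-116837950), had 2323 of its 2332 one-exon reads on a model of 489 bases, shorter than its 661-base 3′ exon. ACTG1, cytoplasmic gamma actin, differed: 643 reads were on a model of 507 bases and 496 on a model of 1009 bases, longer than its 863-base 3′ exon.

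**Figure D4:**
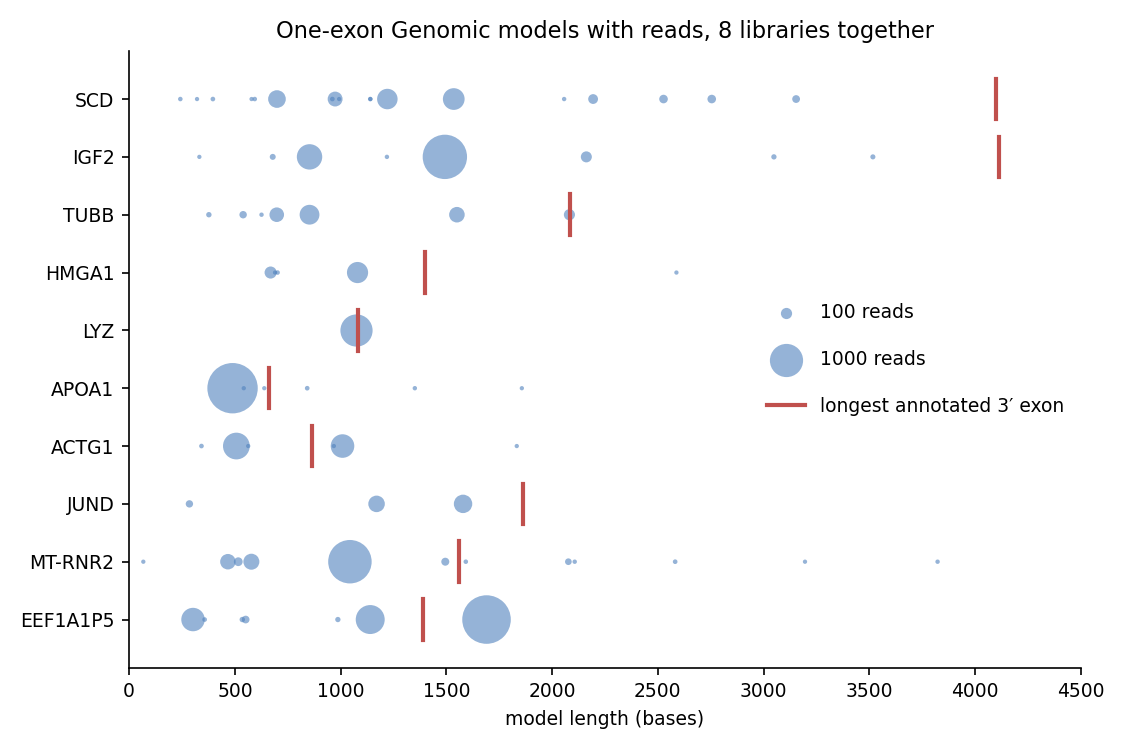
Lengths in bases of the one-exon Genomic models of 10 genes (circles, area by reads over the 8 libraries), with the longest annotated 3′ exon of each gene as a vertical bar. The models of SCD and IGF2 stop short of the bar, and the main EEF1A1P5 model passes it.

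Genes annotated with a single exon had part of their reads in the one-exon Genomic class and part in other classes. The Genomic part was 36.2 ± 0.789% of the reads of single-exon coding genes in K562 (SD, n = 2), 71.5 ± 0.752% in HepG2 and 28.9 ± 2.02% in GM12878 (SD, n = 3 each; exact permutation p = 0.00357, 0.0321 adjusted over 9 kinds of gene). The lines did not overlap. A pair of histone genes was singled out after their values were seen. HIST1H1C had 595 reads of other classes in K562, 44 in HepG2 and 1211 in GM12878, and HIST1H2BK had 492 in K562, 33 in HepG2 and 668 in GM12878. Without them the share was 60.5 ± 1.97% in K562 (SD, n = 2), 72.5 ± 0.626% in HepG2 and 59.6 ± 1.38% in GM12878 (SD, n = 3 each; exact permutation p = 0.0179). HepG2 was still the highest, and the K562 and GM12878 ranges then overlapped. For single-exon noncoding genes the Genomic part was 64.5 ± 4.78% in K562 (SD, n = 2), 64.9 ± 2.99% in HepG2 and 13.9 ± 2.88% in GM12878 (SD, n = 3 each; exact permutation p = 0.0321, adjusted 0.0579). The immunoglobulin light chain segment IGLC2 alone had 806 reads of other classes in GM12878 and none elsewhere, and without it GM12878 stood at 50.1 ± 2.84% (SD, n = 3). At unannotated antisense loci the Genomic part was 35.3 ± 3.09% in K562 (SD, n = 2), 38.3 ± 1.60% in HepG2 and 18.9 ± 4.14% in GM12878 (SD, n = 3 each; exact permutation p = 0.0107, adjusted 0.0482).

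Within single-exon coding genes the models were short, with a read-weighted median of 43.0% of the annotated length in K562, 42.1% in HepG2 and 42.2% in GM12878. SEPHS2, a selenophosphate synthetase, and HNRNPA0, an RNA-binding protein, had every read in the class, 313 and 256. PCBP1, a poly(C)-binding protein, had 46 one-exon Genomic and 100 other reads in K562, 204 and 271 in HepG2, and 70 and 144 in GM12878.

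To compare lines gene by gene, each annotated gene was split into its one-exon Genomic reads and its other reads, and both were tested with edgeR's quasi-likelihood test across all features, with a call at a Benjamini-Hochberg adjusted p under 0.05 and a change of at least 2-fold. Of 12043 annotated genes with one-exon reads, 720 passed the filter on low counts. With library totals in place of the trimmed-mean scaling, the median change of all features moved by -0.39 in HepG2 against GM12878, -0.01 in K562 against GM12878 and 0.38 in K562 against HepG2 on the log2 scale, and changes are relative to the scaling used. Genes that passed only through the line where they are high had to differ, so the counts that follow describe those genes alone.

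In HepG2 against GM12878, 435 of the 720 one-exon features were called, or 60.4%, against 49.6% of all 4597 features. In HepG2 276 were higher (38.3%, against 28.6% of all features) and 159 were lower (22.1%, against 21% of all features). Of the genes higher in HepG2, the 5 with the largest changes after adding 10 CPM were IGF2, APOA1, LYZ, SELENOP and APOB. IGF2 had 1338, 787 and 384 one-exon reads in HepG2 and none in GM12878, at least 422-fold higher against a floor of 3 counts over the line (adjusted p = 0.0128). APOA1 had 1062, 560 and 710 reads in HepG2 and none in GM12878, at least 385-fold higher (adjusted p = 2.14e-20), and LYZ had 418, 182 and 340 against none, at least 153-fold higher (adjusted p = 5.35e-17). IGF2, APOA1 and LYZ had no one-exon read in GM12878 or K562 and passed the filter through HepG2 alone. The rule that picked the 5 genes also required that libraries of the lines not overlap. Their separation and adjusted p are therefore no further result.

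SELENOP, the liver selenium carrier, and APOB, the apolipoprotein of LDL, were also at 0 in GM12878 and averaged 623 ± 221 and 564 ± 3.81 CPM in HepG2 (SD, n = 3). SCD was found in both lines, with 524, 340 and 447 reads in HepG2 and 13, 12 and 3 in GM12878 (log2 change 4.56 ± 0.28 SE, adjusted p = 4.22e-16). The lowest library of HepG2 exceeded the highest of GM12878. CEBPA, a single-exon gene of a hepatocyte transcription factor, had 122, 74 and 74 reads in HepG2 and none in GM12878 (at least 45.3-fold higher). GLUL, glutamine synthetase, had 111, 46 and 105 in HepG2 and 1 read in GM12878, a CPM ratio of 130 (counting interval 23.2 to 5172).

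Of the genes lower in HepG2, the 5 with the largest changes after adding 10 CPM are described with their reads. LCP1, a leukocyte actin-bundling protein, had 0, 2 and 2 one-exon reads in HepG2 and 101, 101 and 36 in GM12878 (log2 change -6.70 ± 0.43 SE, adjusted p = 1.47e-15). MS4A1, which encodes CD20, had none in HepG2 and 49, 59 and 10 in GM12878. IRF4, a lymphoid transcription factor, had none in HepG2 and 43, 38 and 15 in GM12878. LAPTM5, a lysosomal membrane protein of blood cells, had none in HepG2 and 83, 89 and 33 in GM12878. COTL1, an actin-binding protein, had 2, 0 and 1 in HepG2 and 34, 47 and 19 in GM12878. The rule that picked these 5 required that libraries of the lines not overlap, so their separation is no further result. This also holds for the genes picked by their change in the K562 comparisons below. TUBB, a beta tubulin, fell by 2.07 ± 0.20 on the log2 scale (SE, adjusted p = 1.07e-10) and TUBA1B, an alpha tubulin, by 1.71 ± 0.23 (SE, adjusted p = 7.24e-08).

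In K562 against GM12878, 205 of 720 one-exon features were called (28.5%, against 27.6% of all features), 84 higher in K562 (11.7%, against 13.2% of all features) and 121 lower (16.8%, against 14.4%). Without K562 replicate 1 the count was 335. PIM1, a serine/threonine kinase, had 28 and 112 reads in K562 and 3, 1 and 0 in GM12878 (log2 change 4.78 ± 0.59 SE, adjusted p = 8.50e-08). HOXB9, a homeobox gene, had 9 and 51 reads in K562 and none in GM12878 (at least 15.4-fold higher, adjusted p = 1.05e-05). FAM83A had 27 and 114 in K562 and none in GM12878 (at least 37.3-fold higher, adjusted p = 4.56e-08). The K562 libraries differed between themselves in these genes, and FAM83A and HOXB9 did not pass in DESeq2, here or against HepG2. GLUL had 42 and 55 reads in K562 and a single read in GM12878. SEPT5-GP1BB, a read-through of a septin and a platelet glycoprotein gene that overlaps both, had 47 and 32 in K562 and none in GM12878, so its reads could belong to either gene.

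Lower in K562 were LAPTM5, MS4A1, IRF4, CD74 and RUNX3, with the B cell genes at 0 in both K562 libraries except for 1 read of LAPTM5 in each. CD74, the MHC class II invariant chain, had none in K562 and 24, 33 and 15 in GM12878 (at least 27.7-fold lower, adjusted p = 4.72e-09). RUNX3, a lymphoid transcription factor, had none in K562 and 28, 33 and 10 in GM12878 (at least 25.6-fold lower, adjusted p = 9.51e-09). MT-ND5 fell by 1.81 ± 0.39 on the log2 scale (SE, adjusted p = 0.000309). Of the 7 tested mitochondrial genes, 3 were called lower, against 14.4% of all features and 16.8% of one-exon features.

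In K562 against HepG2, 368 of 720 were called (51.1%, against 44.7% of all features), 93 higher in K562 (12.9%, against 17.2% of all features) and 275 lower (38.2%, against 27.4%). Without HepG2 replicate 1 the count was 245. The lower side held the HepG2 genes named above, with IGF2, APOA1, LYZ and APOB at 0 in both K562 libraries and SELENOP at 0 and 3 reads. Leaving out either K562 library ended the call of IGF2, whose HepG2 libraries ranged over 384 to 1338 reads. Of 7 tested mitochondrial genes, 6 were called lower in K562, against 27.4% of all features and 38.2% of one-exon features. MT-CO1 had a log2 change of -2.13 ± 0.28 (SE, adjusted p = 7.32e-08). Higher in K562 were PIM1, FAM83A, HOXB9 and SEPT5-GP1BB, and also AC079466.1, a long noncoding RNA with 24 and 24 reads in K562 and none in HepG2 (at least 31.4-fold higher, adjusted p = 2.40e-08). HMGA1, a chromatin protein, was higher at 1.70 ± 0.24 (SE, adjusted p = 2.73e-07).

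Among the other lists, NORAD had 8 and 19 one-exon reads in K562, 53, 19 and 33 in HepG2, and 5, 3 and 0 in GM12878. It was called higher in HepG2 than in GM12878 (log2 change 2.65 ± 0.49 SE, adjusted p = 1.88e-05). It was also called higher in K562 than in GM12878 (1.55 ± 0.60 SE, adjusted p = 0.0459) and lower in K562 than in HepG2 (-1.10 ± 0.40 SE, adjusted p = 0.0201). The last call was near the 2-fold threshold and may depend on the scaling, which moved that comparison's median by 0.38. SNHG16 was called higher in HepG2 than in GM12878 and lower in K562 than in HepG2. Of 6 tested SR protein and CLK genes, 2 were lower in HepG2 than in GM12878 (21% of all features were), 1 was lower in K562 than in GM12878 (14.4% of all features) and 1 higher in K562 than in HepG2 (17.2% of all features). Neither tested member of the ribosomal protein list, RPL15 or the ribosomal protein-like gene RPL7L1, was called in any comparison. Over the 720 features the median change was 0.46 in HepG2 against GM12878, -0.13 in K562 against GM12878 and -0.57 in K562 against HepG2 on the log2 scale, with features at 0 in a line set at their bound.

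Where the rest of the gene could be tested, the called one-exon reads mostly changed with it. Of the 276 one-exon features higher in HepG2 than in GM12878, the other reads of 159 could be tested, and 125 of these were called in the same direction, 1 in the opposite direction and 33 not called. Of the 159 lower in HepG2, 82 could be tested, with 65 the same, 1 opposite and 16 not called. For K562 against GM12878, 30 of 49 on the higher side and 49 of 59 on the lower side were called the same way, with 2 and 0 opposite. The other reads of 35 and 62 further genes could not be tested. For K562 against HepG2, 34 of 49 and 121 of 152 were called the same way and none opposite, and 44 and 123 could not be tested. Of all features, 28.6% were called higher and 21% lower in HepG2 than in GM12878. These rates were 13.2 and 14.4% in K562 against GM12878, and 17.2 and 27.4% in K562 against HepG2.

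**Figure D5:**
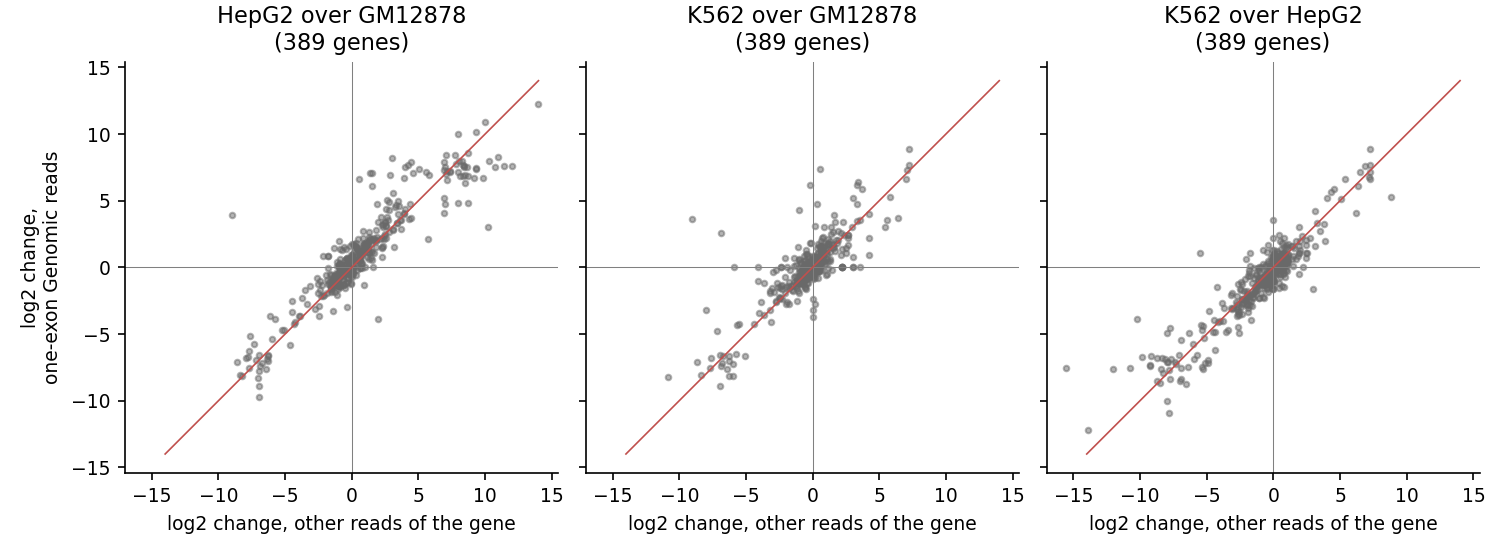
Log2 change of a gene's one-exon Genomic reads (vertical) against that of its other reads (horizontal) for the 389 genes with both tested, in HepG2 over GM12878, K562 over GM12878 and K562 over HepG2, with the line of equal change. Most points follow the line, and the flat row of points at a one-exon change of 0 is genes with no one-exon reads in either line compared.

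Few genes were called for a change in the part of their own reads that was one-exon Genomic. A gene not called may still have changed, since 10 reads in each line were enough to be tested. The part was tested with edgeR's diffSpliceDGE, and a call also needed a shift of at least 10 percentage points. In HepG2 against GM12878, 28 of 1952 genes were called (1.43%), 21 with a higher part in HepG2 (1.08%) and 7 with a lower one (0.359%). In K562 against GM12878, 6 of 1688 were called (0.355%), 5 higher in K562 (0.296%) and 1 lower (0.0592%). In K562 against HepG2, 5 of 2085 were called (0.24%), 2 higher in K562 (0.0959%) and 3 lower (0.144%). The median shift over the tested genes was 3.78 points in HepG2 against GM12878, 1.21 points in K562 against GM12878 and -2.53 points in K562 against HepG2. Without GM12878 replicate 1 the first count was 6, without GM12878 replicate 2 it was 12 and without HepG2 replicate 3 it was 13. The count in K562 against GM12878 was 10 without K562 replicate 1 and 2 without K562 replicate 2. The count in K562 against HepG2 was 2 without K562 replicate 2, 3 without HepG2 replicate 1, 8 without HepG2 replicate 2 and 3 without HepG2 replicate 3.

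The largest shift was at the pseudogene RPL13P12. Its one-exon Genomic reads, all on a model of 444 bases, were 41 of 41 and 56 of 56 in K562, 69 of 69, 86 of 86 and 55 of 55 in HepG2, and 4 of 45, 2 of 59 and 1 of 27 in GM12878. The part was 100% in K562 and HepG2 and 5.34% in GM12878 (adjusted p = 4.40e-24 and 9.08e-44 by edgeR's diffSpliceDGE). RPL4P4 and MORF4L1P1 also shifted: MORF4L1P1 stood at 100% in K562, 52.3% in HepG2 and 12.9% in GM12878, and RPL4P4 at 100% in K562 and in HepG2 and 60.0% in GM12878. Reads at these copies are uncertain, as above.

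Other shifts were at single genes. JUND, a single-exon transcription factor gene, was at 100% in every K562 and HepG2 library and at 80.0, 76.9 and 72.7% in GM12878. The linker histone gene H1FX was at 85.6% in HepG2 and 42.4% in GM12878, and its 2 K562 libraries differed widely, at 37.8 and 89.8%. HSD17B4, a peroxisomal enzyme of fatty acid oxidation, was at 2.70% in HepG2 and 64.1% in GM12878 (adjusted p = 5.67e-09). COX7A2L, a respiratory supercomplex factor, had 16 one-exon reads on a single model of 346 bases, none in K562 or HepG2 and 9, 5 and 2 in GM12878. ATP5IF1, the inhibitor of mitochondrial ATP synthase, was at 0.763% in K562 and 12.7% in HepG2. Leaving out 1 library ended the calls of RBFOX2, FAM172A, IER2, TAF15, ALDH18A1 and, without GM12878 replicate 1, H1FX. It also ended those of COX7A2L, JUND and RPL4P4 in K562 against GM12878 and of ATP5IF1 when K562 replicate 2 was left out.

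At loci outside the annotation the class held 887 intergenic and 1032 antisense models with reads. The leading locus, named ENCODEHG000050903 in the tables, had 731 one-exon reads among 741, in 47 models: 66 and 61 in K562, 156, 152 and 139 in HepG2, and 45, 44 and 68 in GM12878. ENCODEHG000065952 had 238, 90 and 41 one-exon reads in HepG2 and none in K562 or GM12878. ENCODEHG000050052 had 1 and 2 in K562, 128, 64 and 90 in HepG2 and none in GM12878.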

How the data were processed

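Direct RNA libraries of K562 (2), HepG2 (3) and GM12878 (3) were compared. The authors deposited whole-number read counts per TALON transcript model, per the labels, with the model's length and exon number. Per the submitters' processing notes, the aligner was minimap2 and the build hg38. TALON settings are not given in the sources used here. The 3 tables listed the same 506946 models.

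Models with class Genomic and 1 exon were selected, and all 20565 annotated genes matched GENCODE release 29. The members and lists were chosen with earlier results of these data known. A gene's one-exon and other reads were tested with edgeR 4.0.16 (R 4.3.3; filterByExpr, trimmed-mean scaling, quasi-likelihood test, Benjamini-Hochberg adjustment over all features) and its one-exon part with diffSpliceDGE (at least 10 reads in each line and 10 one-exon reads). CPM are counts per 1000000 reads of the scaled total. Single values per library were compared by two-sided exact permutation tests. With 3 libraries against 3 the smallest p is 0.1.

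Named genes were the 15 with the highest one-exon CPM and the 8 highest of each line, the 5 largest called changes per comparison and direction (after adding 10 CPM) where libraries of the lines did not overlap and one line reached 50 CPM, the 5 largest called share shifts with at least 30 reads in each line, the 10 highest and 5 lowest shares among genes with 200 reads, the 10 largest models and the 3 largest members of each of 10 lists. Alternatives used DESeq2 1.42.0, no filter, other scalings, other read minimums, only 2 lines, a replicate block and each library left out. Library totals without trimmed-mean scaling, and shares without HIST1H1C, HIST1H2BK, IGLC2, EEF1A1P5, FP671120.1 or FP236383.1, were added after seeing the data. Counting variance between libraries of a line exceeded sampling noise (chi-square per degree of freedom 1.22 to 2.08 over 7 pairs). Each library counted as a sample, but this excess cannot show that they came from separate cultures. The scripts were tested on simulated data. Results for some of the genes this rule picks are not reported here.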

Additional observations from a re-analysis of the deposited data

How the results depend on the processing

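Of the comparisons' values under the alternatives tried, 157 kept their direction and side of the threshold, 10 reversed, 5 newly passed the threshold and 19 counts moved by over 1.5 times. Of the values of single named genes 477 kept them, 33 fell under the threshold and 0 reversed. The exceptions follow, and the cause was not tested for any of them. With genes weighted alike in all libraries, the share of reads spread over 0.846 points (exact permutation p = 0.0214), and K562 then stood 0.543 points above GM12878. With models counted after thinning to 70374 reads, K562 stood 0.00399 points above GM12878. Without the 10 genes with the most one-exon reads the length differed by 52.3 bases (exact permutation p = 0.0429), and the mean length by 66.2 bases (p = 0.0179 in the same permutation test). With each model counted once, models longer than every exon stood 0.561 points higher in K562 and 0.206 points higher in HepG2, each against GM12878, and without the 10 genes K562 stood 0.0141 points above GM12878.

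Calls by gene without a filter numbered 1136 in HepG2 against GM12878, 316 in K562 against GM12878 and 871 in K562 against HepG2. With only the lines compared there were 285 in HepG2 against GM12878 and 110 in K562 against GM12878, and DESeq2 gave 128 in K562 against GM12878. Calls of the one-exon part in K562 against HepG2 were 2 with at least 20 reads in each line. An unadjusted p under 0.05 by diffSpliceDGE was reached for the part by 233 of 1952, 139 of 1688 and 217 of 2085 genes. These are in the order HepG2 against GM12878, K562 against GM12878 and K562 against HepG2. Leaving out each library in turn gave, in that order, 295 to 481, 160 to 335 and 245 to 526 calls by gene, and 6 to 24, 2 to 10 and 2 to 8 calls of the part. The largest difference between lines ranged over 1.74 to 2.14 points for the share of reads, 22.8 to 61.3 bases for length and 0.836 to 1.53 points for models longer than every exon. The share difference ranged over 0.744 to 1.94 points for HepG2 against GM12878, -1.19 to 0.00291 for K562 against GM12878 and -2.14 to -1.74 for K562 against HepG2. The length difference ranged over -61.3 to -19.3, -28.3 to -17.3 and -3.50 to 38.5 bases, and that of models longer than every exon over -1.53 to -0.678, -0.773 to 0.158 and 0.372 to 1.30 points. These ranges include values with the opposite sign, without GM12878 replicate 1 for the share, without HepG2 replicate 3 for length in K562 against HepG2, and without K562 replicate 2 or GM12878 replicate 3 for models longer than every exon in K562 against GM12878.

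The replicate numbers did not pair the libraries: deviations of same-numbered libraries correlated between -0.0678 and 0.0459. With the replicate number as a block, 1 gene was called for the one-exon part in K562 against HepG2. Depth limits the test to 720 one-exon features, and a line's floor of 3 counts stood at 6.05 CPM in K562, 3.40 in HepG2 and 6.83 in GM12878.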
